A study of Homo sapiens with 4 samples.

Results

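The microRNA machinery was followed in U87, an established human glioma cell line, through 9 of its genes among 18304 measured, read by 31 probe sets of 41920. There were 10 members, listed by name: DROSHA, DGCR8, XPO5, DICER1, TARBP2, AGO1, AGO2, AGO4, TNRC6A and TNRC6B. A probe set was kept where GEO's annotation of the array named exactly 1 gene and that gene was a member. DGCR8, the RNA-binding partner of DROSHA, has no value here, because all 4 of its probe sets also name MIR1306, a microRNA gene that lies inside DGCR8. For AGO2, 3 further probe sets name a second gene and were left out.

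One group was QK-knockdown U87 cells transduced with miR-20a (2 arrays). The control group was QK-knockdown U87 cells transduced with miR-NT, a microRNA of scrambled sequence (2 arrays). Both groups thus carried the knockdown of QK (QKI, an RNA-binding protein), and no cells without it were analysed here. Each array is single-colour, and its values are log2 probe-set levels, so a difference of 1 is a doubling. Whether the samples of one group are separate cultures is not stated, so the p-values rest on a spread that may be only technical.

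MicroRNAs are made from long primary transcripts. In the nucleus the RNase III enzyme DROSHA, bound to DGCR8, cuts out a hairpin, which exportin-5 (XPO5) carries to the cytoplasm, where a second RNase III enzyme, DICER1, with its partner TARBP2 (TRBP), trims it to a short duplex. One strand is kept by an Argonaute protein and guides it to messenger RNAs, and the TNRC6 (GW182) proteins that bind Argonaute recruit the enzymes that shorten and uncap the bound messenger RNA.

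The hairpin of miR-20a, the substrate these proteins would process, shows where they cut. It is given from RefSeq (GRCh38.p14, chr13:91351065-91351135, plus strand), 5′ to 3′, with the 2 mature arms in capitals. In the annotated gene, DROSHA releases the hairpin from its flanks and DICER1 removes the loop between the arms. Whether the transduced construct carried these flanks is not stated in the labels.
MIR20A hairpin: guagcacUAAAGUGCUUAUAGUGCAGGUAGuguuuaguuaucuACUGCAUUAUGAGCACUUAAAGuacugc

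The mature strand that an Argonaute keeps reads a target mainly through its seed, bases 2 to 8 counted from the 5′ end. All 6 members of the miR-17 family looked up in the same table have the seed of miR-20a, shown in capitals. They are printed as relatives of miR-20a that would use the same proteins where a cell holds them. That use is not set by the seed.
miR-20a-5p: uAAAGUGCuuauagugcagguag
miR-17-5p: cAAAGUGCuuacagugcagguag
miR-20b-5p: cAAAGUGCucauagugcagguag
miR-106a-5p: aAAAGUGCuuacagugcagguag
miR-106b-5p: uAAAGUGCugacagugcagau
miR-93-5p: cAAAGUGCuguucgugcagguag
Counted from the 5′ end, miR-17-5p differs from miR-20a-5p by U1C and U12C, and miR-93-5p by U1C, U10G, A11U and A13C. The level of the microRNAs themselves was not measured on these arrays.

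No member probe set passed the test. In the limma fit over all probe sets, 0 of 31 had a Benjamini-Hochberg adjusted p under 0.05, against 57 of 41920 probe sets, or 0.136%. At an unadjusted p under 0.05 (limma) 1 member probe set was higher in miR-20a cells, 3.23% of the 31 against 9.46% of all probe sets, and 2 were lower, 6.45% against 8.4% of all. These shares of the members lie below those of all probe sets. Adjusted p-values of the members ran between 0.188 and 0.998 (limma). No member changed by as much as 0.5 log2 units: changes lay between -0.33 and 0.26, where 1.85% of all probe sets passed that size.

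The changes of the members are set beside the gaps between arrays of one group, which are an unlike measure. Their median change, taken without its sign, was 0.101 log2 units. The 2 miR-20a arrays differed from each other by a median of 0.117 on the same probe sets, and the 2 miR-NT arrays by 0.104. Over all probe sets the corresponding medians were 0.120, 0.116 and 0.102. A change is a difference between means of 2 arrays, which varies less than a gap between single arrays. Near values of the medians therefore do not show that the changes are only array spread.

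The signs leaned to lower levels in miR-20a cells. Of the 31 probe sets 22 had a lower mean in miR-20a cells and 9 a higher one, so 71% were lower, against 55.2% of all probe sets. Both miR-20a arrays lay below both miR-NT arrays for 13 probe sets, 41.9% of the members against 27.2% of all, and above them for 3, 9.68% against 21.7% of all. The median signed change was -0.07 over the members and -0.02 over all probe sets. Probe sets of one gene read the same transcripts and are not independent of each other. The leaning sat mostly in the Argonaute and TNRC6 genes: 5 of 7 probe sets of AGO1, AGO2 and AGO4 and 11 of 13 of TNRC6A and TNRC6B were lower, against 6 of 11 of DROSHA, XPO5, DICER1 and TARBP2. These splits are descriptions, with no test of a difference between the groups of genes.

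**Figure D1:**
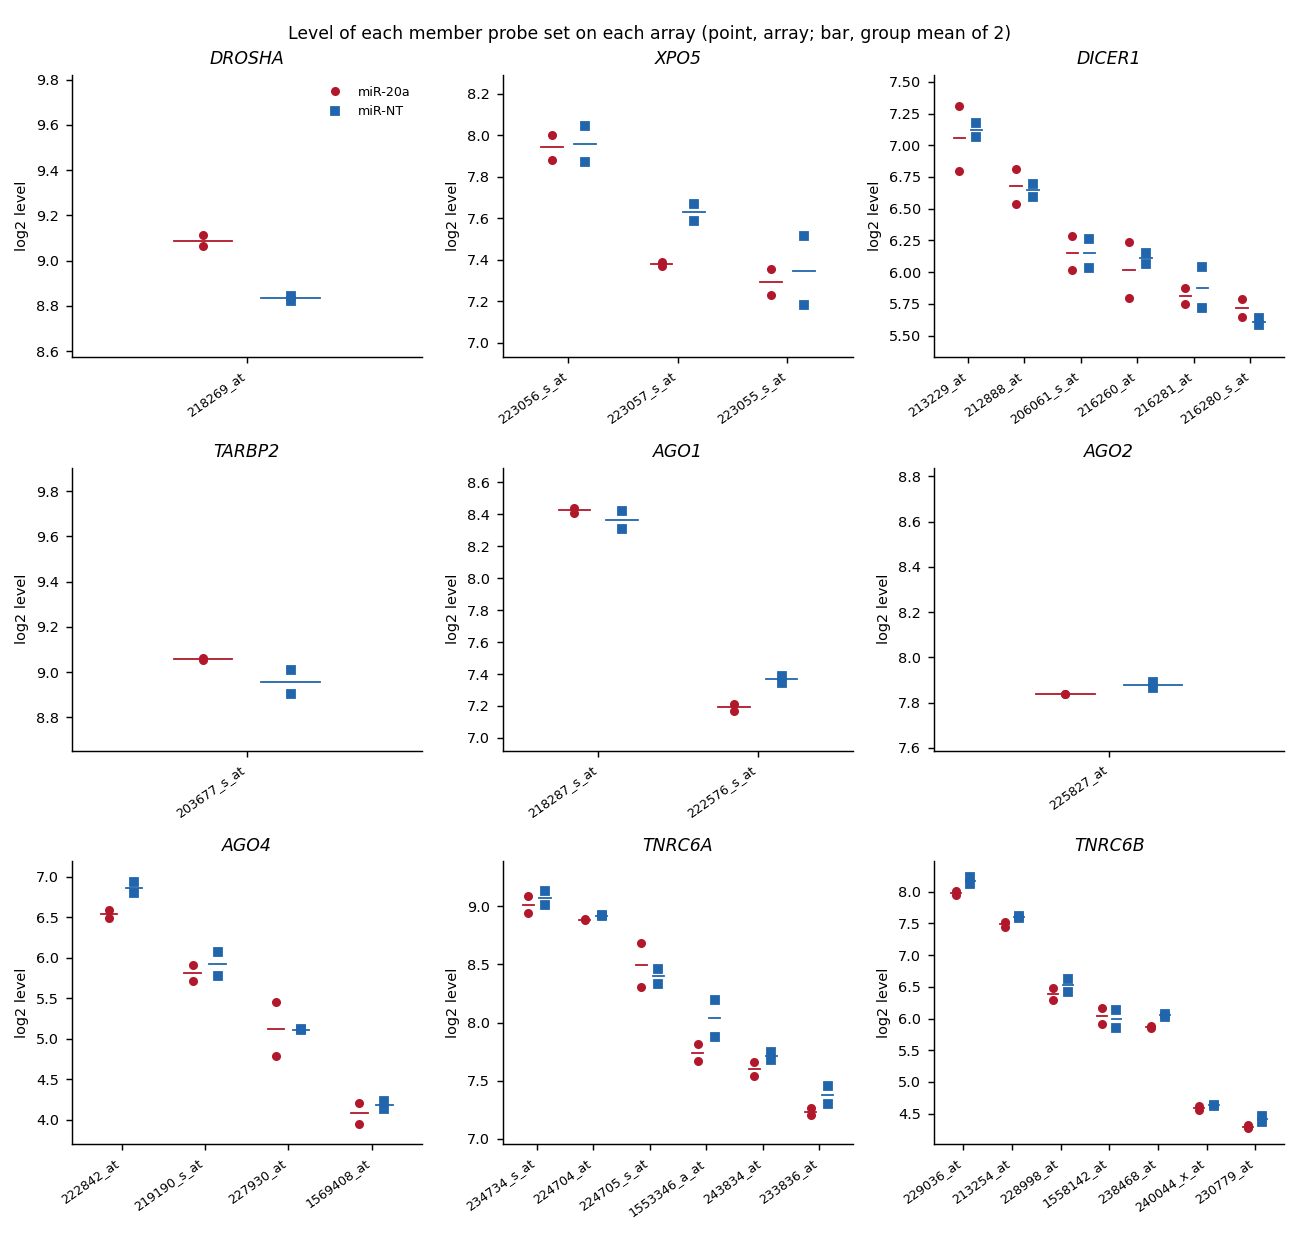
Log2 level (vertical axis) of each of the 31 member probe sets (horizontal axis, ordered by mean level within a gene) on each array, with red circles for miR-20a and blue squares for miR-NT, and a bar at each group mean of 2. Both miR-20a arrays lie below both miR-NT arrays for 13 probe sets and above both for 3. DROSHA 218269_at, XPO5 223057_s_at and AGO4 222842_at are among these probe sets. For most DICER1 probe sets the 2 miR-20a arrays straddle the miR-NT arrays.

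DROSHA, the nuclease that starts the pathway, had the largest positive change of the members. Its single probe set, 218269_at, read 9.11 and 9.07 log2 units in miR-20a cells, against 8.84 and 8.82 in miR-NT cells. Both miR-20a arrays thus lay above both miR-NT arrays, and the gap between the groups exceeded the gaps within them. The change was 0.26 ± 0.09 (SE), or 1.19-fold, with a 95% interval of 0.05 to 0.46, and it did not pass (limma adjusted p = 0.215). No second probe set of DROSHA was measured that could be set beside it.

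XPO5, which exports the hairpin together with the GTPase RAN, was read by 3 probe sets. All 3 had a lower mean in miR-20a cells, by unlike amounts, and their 95% intervals overlap. Probe set 223057_s_at read 7.37 and 7.39 log2 units in miR-20a cells, against 7.59 and 7.67 in miR-NT cells. Its groups did not overlap, and its change was -0.25 ± 0.09 (SE, 95% interval -0.46 to -0.04, limma adjusted p = 0.228). The probe set with the highest mean, 223056_s_at, averaged 7.94 ± 0.08 in miR-20a cells and 7.96 ± 0.12 in miR-NT cells (SD, n = 2 each). There the groups overlapped, with a change of -0.02 and an interval of -0.26 to 0.23. The third, 223055_s_at, overlapped as well, with a change of -0.06, and its miR-NT arrays were 7.51 and 7.18.

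DICER1, the cytoplasmic RNase III enzyme, showed no common direction. Of its 6 probe sets 3 were higher and 3 lower, with changes between -0.09 and 0.11 and adjusted p-values of 0.594 or more (limma). Probe set 213229_at, with the highest mean, read 7.31 and 6.80 log2 units in miR-20a cells, against 7.18 and 7.07 in miR-NT cells. The miR-20a arrays lay on both sides of the miR-NT arrays, and the interval of the change, -0.47 to 0.33 log2 units, is wide. Probe set 216280_s_at, at 5.79 and 5.65 in miR-20a cells against 5.58 and 5.64 in miR-NT cells, was the one whose groups did not overlap.

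TARBP2, the double-stranded RNA-binding partner of DICER1, was read by 1 probe set, 203677_s_at. It read 9.06 and 9.05 log2 units in miR-20a cells, against 8.90 and 9.01 in miR-NT cells. The groups did not overlap, but the change of 0.10 ± 0.09 (SE) was no larger than the gap between the miR-NT arrays (95% interval -0.11 to 0.32, limma adjusted p = 0.601).

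**Figure D2:**
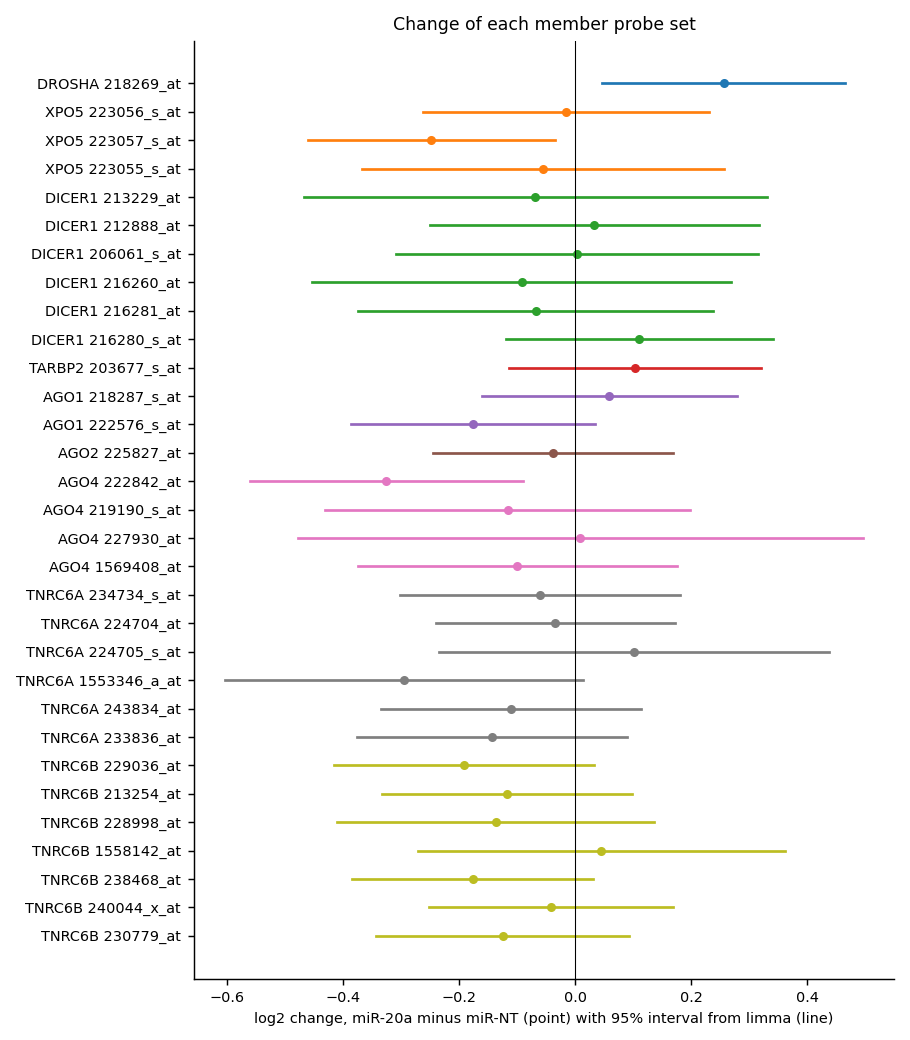
Log2 change of each member probe set, miR-20a minus miR-NT (point, horizontal axis), with its 95% interval from limma (line), coloured by gene. Intervals clear 0 only for DROSHA 218269_at, XPO5 223057_s_at and AGO4 222842_at, and none of these passed after adjustment.

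Among the Argonautes, AGO4 had the largest change of all members. AGO4, like AGO1, binds microRNAs but is not known to slice targets, a reaction for which AGO2 is the main human enzyme. Probe set 222842_at, with the highest mean, read 6.59 and 6.49 log2 units in miR-20a cells, against 6.94 and 6.79 in miR-NT cells. Both miR-20a arrays lay below both miR-NT arrays. The change was -0.33 ± 0.10 (SE), 1.25-fold lower, with a 95% interval of -0.56 to -0.09, and it did not pass (limma adjusted p = 0.188). It was -0.13 when the 4 probe sets of AGO4 were averaged.

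The other AGO4 probe sets had smaller changes. Probe set 219190_s_at changed by -0.12 and 1569408_at by -0.10, both with overlapping groups. Probe set 227930_at changed by 0.01, and it rests on discordant arrays: it read 5.45 and 4.78 log2 units in miR-20a cells, against 5.12 and 5.10 in miR-NT cells. Probe set 1569408_at lay in the lowest 3.63% of all probe sets by mean level. Without detection calls, such a low level cannot be told from background.

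The 2 probe sets of AGO1 went opposite ways. Probe set 218287_s_at read 8.44 and 8.41 log2 units in miR-20a cells, against 8.31 and 8.42 in miR-NT cells, and these overlapped. Probe set 222576_s_at read 7.21 and 7.17 in miR-20a cells, against 7.34 and 7.39 in miR-NT cells, with both miR-20a arrays below. Their changes were 0.06 (95% interval -0.16 to 0.28) and -0.18 (-0.39 to 0.03, limma adjusted p = 0.348), and the intervals overlap.

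AGO2 is the slicing Argonaute. Its single probe set, 225827_at, read 7.84 on both miR-20a arrays, against 7.86 and 7.89 log2 units in miR-NT cells. The miR-20a arrays lay below, by only 0.04 on average. The 95% interval of the change, -0.25 to 0.17, comes from limma, whose shared spread is wider than the gaps of this probe set.

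Beside them, AGO3, the other Argonaute, which was not a member and was singled out after its value was seen, had a change of -0.04 (limma adjusted p = 0.947). It read 7.21 and 6.69 log2 units in miR-20a cells, against 7.08 and 6.90 in miR-NT cells, so its groups overlapped. AGO4, AGO1 and AGO3 lie close together on one chromosome in RefSeq (GRCh38.p14), and the probe sets of these neighbours with the highest mean changed by -0.33, 0.06 and -0.04.

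TNRC6A and TNRC6B encode the scaffold proteins that carry glycine-tryptophan repeats and join Argonaute to the deadenylases. Of the 6 probe sets of TNRC6A 5 were lower in miR-20a cells and 1 higher, with changes between -0.30 and 0.10. The largest, 1553346_a_at, read 7.81 and 7.67 log2 units in miR-20a cells, against 8.19 and 7.88 in miR-NT cells. Both miR-20a arrays were lower, although the miR-NT arrays differed by about as much as the groups (change -0.30 ± 0.13, SE, limma adjusted p = 0.294). Without miR-NT replicate 1 the change was -0.14, and without miR-NT replicate 2 it was -0.45. The probe set with the highest mean, 234734_s_at, read 9.08 and 8.94 in miR-20a cells, against 9.14 and 9.01 in miR-NT cells, and these overlapped. The higher one, 224705_s_at, read 8.69 and 8.31 in miR-20a cells, against 8.46 and 8.33 in miR-NT cells. It was above both miR-NT arrays on 1 miR-20a array and below both on the other.

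Of the 7 probe sets of TNRC6B 6 were lower and 1 higher, with a median change of -0.13, and for 5 both miR-20a arrays lay below both miR-NT arrays. Probe set 229036_at, with the highest mean, read 8.02 and 7.94 log2 units in miR-20a cells, against 8.23 and 8.12 in miR-NT cells, with a change of -0.19 ± 0.09 (SE, 95% interval -0.42 to 0.03). Probe set 238468_at read 5.89 and 5.86 in miR-20a cells, against 6.06 and 6.03 in miR-NT cells, a change of -0.18. In both the groups stood apart, and for 238468_at the arrays of a group lay close together. Adjusted p-values of the 7 were between 0.339 and 0.903 (limma). Probe sets 240044_x_at and 230779_at, in the lowest 9.67% and 6.53% of the level scale, changed by -0.04 and -0.13. The exception, 1558142_at, changed by 0.04 with overlapping groups. TNRC6C, the third paralog, was also singled out after its value was seen. Of its 4 probe sets 2 were higher and 2 lower, and they spanned -0.07 to 0.35 log2 units. The probe set with the highest mean sat at the lower end, -0.07, and did not pass (adjusted p = 0.727, limma). The upper end, 0.35, was larger in size than any change of a member. With its probe sets averaged, TNRC6C was higher in miR-20a cells, by 0.056.

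Other genes of the pathway were described by lists, with 1 probe set a gene, the one with the highest mean. On that basis 3 of the 9 members were higher and 6 lower, with a median change of -0.04, against -0.01 over 18304 genes. In none of the lists did a gene pass (limma, adjusted over all probe sets), against 0.164% of all genes on this basis. Among 17 measured partners of the nuclear step, 14 were higher and 3 lower, with a median of 0.21. At an unadjusted p under 0.05 (limma), 8 of the 17 were higher and 1 was lower, or 47.1% and 5.88%, against 11.8% and 8.33% of all genes. TARDBP (TDP-43), an RNA-binding protein associated with DROSHA, read 10.41 and 10.31 log2 units in miR-20a cells, against 9.98 and 9.87 in miR-NT cells (change 0.43 ± 0.10, SE, limma adjusted p = 0.138). SRRT (ARS2), which links cap-bound transcripts to DROSHA, had a change of 0.31. SRSF3, a splicing factor that binds primary microRNA transcripts, had a change of 0.33. ADARB1, an adenosine deaminase that edits double-stranded RNA, had a change of -0.37. All these had non-overlapping groups, though 1 of 3 probe sets of TARDBP, 1 of 5 of SRRT, 1 of 6 of SRSF3 and 2 of 5 of ADARB1 had the other sign. With the probe sets of a gene averaged, the changes were smaller, at 0.17 for TARDBP, 0.13 for SRRT, 0.17 for SRSF3 and -0.13 for ADARB1. After quantile normalization the probe sets with the highest mean changed by 0.31 for TARDBP, 0.18 for SRRT, 0.16 for SRSF3 and -0.34 for ADARB1. The counts given for the lists are for the values as deposited. The shares of all genes beside them cover every level, while most of the 17 partners lay in the top 20% of the level scale.

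Precursor control and Argonaute loading had 17 measured genes, 11 higher and 6 lower, with a median change of 0.15. An unadjusted p under 0.05 (limma) was reached by 5 of the higher ones and 0 of the lower, or 29.4% of the list higher against the same 11.8% of all genes. TSN (translin), a subunit of the nuclease complex that helps clear the discarded strand, had a change of 0.39, with all 3 of its probe sets higher. DNAJA2, a co-chaperone, had a change of 0.36 and HSPA4, a chaperone, one of 0.31. HSPA8, also on the list, had no probe set naming it alone. TUT7, which adds uridines to precursor hairpins, had a change of 0.28, and 3 of its 5 probe sets were higher. Averaging probe sets gave 0.067 for TUT7 and 0.23 for DNAJA2. After quantile normalization the changes were 0.27 for TSN, 0.29 for DNAJA2, 0.18 for HSPA4 and 0.25 for TUT7. Silencing effectors had 34 measured genes, 24 higher and 10 lower, with a median of 0.08, and 4 of the higher and 3 of the lower ones had an unadjusted p under 0.05 (limma). These are 11.8% and 8.82% of the list, near the shares of all genes. CNOT3, a scaffold subunit of the CCR4-NOT deadenylase, had a change of -0.30 and CNOT8, one of its catalytic subunits, one of 0.30, with all 3 of the probe sets of CNOT8 higher. AJUBA, a LIM protein that binds Argonaute, had a change of 0.34. The other sign was found for 1 of 4 probe sets of AJUBA and 1 of 3 of CNOT3. DCP1A, a decapping cofactor, had a change of -0.24. With averaged probe sets the changes were 0.19 for AJUBA, -0.20 for CNOT3 and -0.14 for DCP1A. Adjusted p-values of the genes named for these 3 lists, AGO3 and TNRC6C aside, lay between 0.138 and 0.234 (limma).

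**Figure D3:**
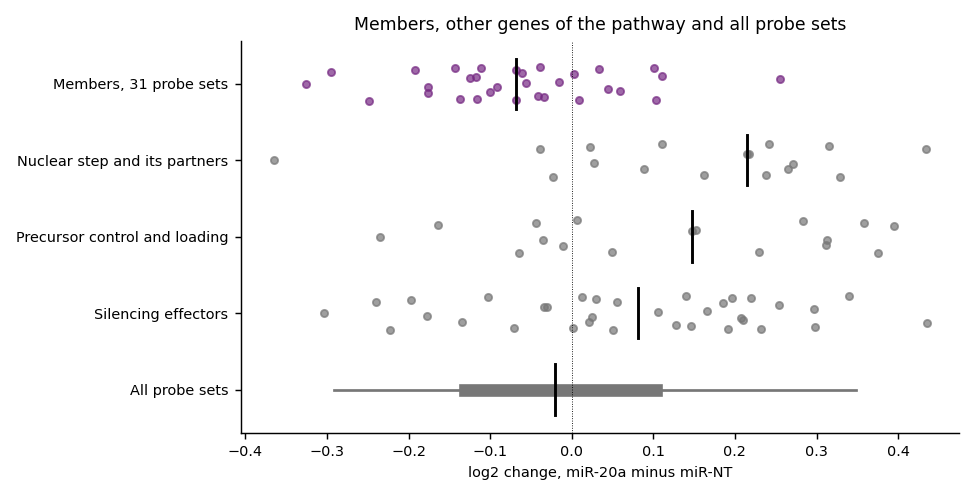
Log2 change, miR-20a minus miR-NT (horizontal axis), of the 31 member probe sets (purple) and of the genes of 3 pathway lists, 1 probe set each (grey), with black bars at the medians. The bottom row gives all 41920 probe sets as the range of the middle 90% (thin line), the middle 50% (thick line) and the median. The median of the members lies at -0.07, and those of the lists at 0.21, 0.15 and 0.08. With 1 probe set a gene, as in the lists, the median of the 9 members is -0.04. The difference between the members and the lists was not tested.

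Changes on these arrays moved with level. The median change over all probe sets was 0.09 in the top 20% of the level scale and between -0.05 and -0.02 in each 20% below it. Of the member probe sets 4 lay in the top 20%, with a median of 0.03, and 9 in the next 20%, with a median of -0.11 against -0.02 for all probe sets there. Of the measured partners of the nuclear step most lay in the top 20%, with SRSF3 at level percentile 97.5, though ADARB1 lay at 60.2. The part of this trend in the signs of the members, and in the signs and shares of the lists, was not tested.

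The direction of the 3 probe sets at an unadjusted p under 0.05 held under each scaling. It also held without each array, but this was fixed in advance, because the groups of each probe set did not overlap. Their p did not stay under 0.05 in all of these settings. The change of DROSHA was 0.18 after quantile normalization and that of AGO4 222842_at was -0.28. Without miR-NT replicate 1, 0 of the 31 were at an unadjusted p under 0.05, with 3231 of all probe sets there (limma).

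**Figure D4:**
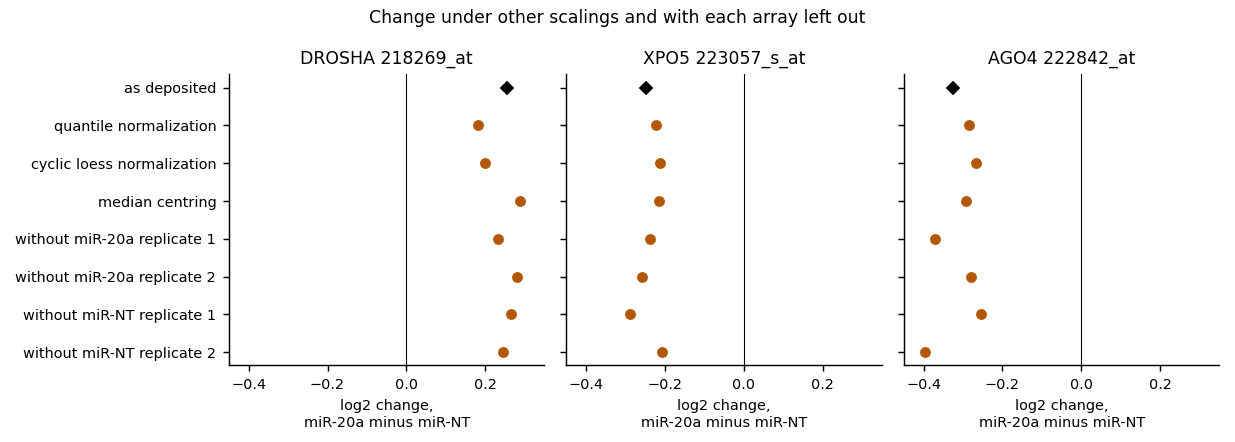
Log2 change, miR-20a minus miR-NT (horizontal axis), of the 3 member probe sets at an unadjusted p under 0.05, as deposited (black diamond) and under 3 other scalings or without 1 array (orange circles; vertical axis). Each keeps its side of 0 in these settings: DROSHA from 0.18 to 0.29, XPO5 223057_s_at from -0.29 to -0.21 and AGO4 222842_at from -0.40 to -0.25. Without 1 array the side was fixed in advance, because the groups of each probe set did not overlap.

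As to the arrays as a whole, the median level lay between 6.97 and 7.01, and all pairs of arrays correlated at 0.991 or more. QKI, by its probe set with the highest mean, read 9.53 and 9.38 log2 units in miR-20a cells. In miR-NT cells it read 9.18 and 9.38 (limma adjusted p = 0.452). Of its 10 probe sets 4 were higher and 6 lower, and changes ran from -0.43 to 0.18. MIR17HG, the host transcript of miR-20a, changed by 0.22 near the bottom of the scale. Of 10 markers of glial and mesenchymal glioma cells 7 were lower in miR-20a cells, against 9696 of 18304 genes. At an unadjusted p under 0.05 (limma) 3 were lower and 0 higher. These are 30% and 0% of the list, against 8.33% and 11.8% of all genes. Of the 10, 1, CHI3L1, fell past the threshold, by 1.12 on the log2 scale (limma adjusted p = 0.0243). None of 6 epithelial, 4 blood, 6 endothelial and 5 neuronal markers passed, with 0, 1, 1 and 0 at an unadjusted p under 0.05 (limma). Those were lower in miR-20a cells, and make up 0%, 25%, 16.7% and 0% of these short lists, against the same 8.33%. For the ACTB controls of the array, the 3′ probe set exceeded the 5′ one by 0.49 ± 0.04 in miR-20a cells and by 0.27 ± 0.11 in miR-NT cells (log2 units, SD, n = 2 each). The part of this sign of RNA quality in the changes of the members was not tested.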

How the data were processed

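RNA levels were read on 4 single-colour Affymetrix arrays, 2 miR-20a and 2 miR-NT, from total RNA. The authors deposited 1 log2 level for each probe set and array. Per the submitters' processing notes they used the R package affy. How background was corrected and arrays were normalized and summarized is not given in the sources used here. That the logarithm is to base 2 follows from the highest value, 15.07.

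The 10 array controls were set aside, and limma 3.58.1 (R 4.3.3; lmFit, eBayes; group as the only term) was run on the remaining 41920 probe sets as deposited, with no filter. The Benjamini-Hochberg method adjusted its two-sided p-values over these probe sets, with 0.05 as threshold. The number of arrays limits the precision, and an exact permutation test of 2 against 2 cannot go below p = 0.333. GEO's platform annotation gave 1 gene for 37465 probe sets, several for 1727 and none for 2728, and 0 symbols changed on comparing Entrez identifiers with RefSeq. It names no genome build, so no positions of probe sets are given, and the hairpin's position and the neighbouring Argonaute genes come from RefSeq (GRCh38.p14). Probe sets ending in _s_at or _x_at may read more than 1 transcript.

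The members, gene lists and settings were chosen with earlier results of these data known. All members are named with their probe sets, and of each pathway list the 4 genes with the smallest p. Other settings were 3 scalings, a filter on low levels, another variance model, a replicate block, other choices or averages of probe sets, another threshold and leaving out each array. The labels do not tie replicate numbers to shared cultures, and deviations of same-numbered arrays correlated at -0.12, so the numbers were not taken as pairs.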

Additional observations from a re-analysis of the deposited data

Results flagged for a closer look

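A signal outside the comparison is the 3′ excess of the array's ACTB controls, 0.486 log2 units in miR-20a cells against 0.272 in miR-NT cells. The same excess for GAPDH was 0.275 in miR-20a cells against 0.222 in miR-NT cells. For each control the groups did not overlap.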

How the results depend on the processing

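In every setting run 0 member probe sets passed the threshold. The number at an unadjusted p under 0.05 (limma) was 3 as reported, with 17.9% of all probe sets there. It was 1 after cyclic loess, with 15.9% of all probe sets there. When the probe sets of a gene were averaged it was 1 of 9 genes, with 19.7% of all genes there. Over all probe sets 57 passed. The count was 334 without the lowest 40% by level, 957 with a trend and robust eBayes, 19 without probe sets ending in _s_at or _x_at, 153 of 18304 genes with averaged probe sets and 159 at an adjusted p of 0.1, and from 0 (without miR-NT replicate 1 or 2, with 3231 and 5097 at an unadjusted p under 0.05, limma) to 66 (without miR-20a replicate 2) with 1 array left out. It was 16 without miR-20a replicate 1. Fewer probe sets or genes were tested under the filter, the averaging and the choice by ending, and the cause of the other shifts was not tested. With the replicate block it was 0, with 5754 probe sets at an unadjusted p under 0.05 (limma), or 13.7% of all. Among these were 4 of the 31 member probe sets. With the numbers crossed between the groups, a setting chosen after seeing the data, 0 of all probe sets and 0 members passed, with 7343 probe sets at an unadjusted p under 0.05 (limma).

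For named probe sets, signs turned 27 times over these settings, for reported changes between -0.12 and 0.18, and the cause was not tested. By setting, XPO5 223056_s_at was 0.017 after median centring, TNRC6B 240044_x_at 0.0025 and AGO3 0.019 after cyclic loess, and AGO1 -0.059, TNRC6C 0.056 and QKI -0.080 with averaged probe sets. With 1 array left out, changes ran from -0.10 to 0.069 for XPO5 223056_s_at and -0.22 to 0.11 for 223055_s_at. For DICER1 they ran from -0.32 to 0.18 (213229_at), -0.11 to 0.17 (212888_at), -0.13 to 0.14 (206061_s_at), -0.31 to 0.13 (216260_at) and -0.23 to 0.092 (216281_at). For AGO4 they ran from -0.27 to 0.033 (219190_s_at), -0.33 to 0.34 (227930_at) and -0.23 to 0.030 (1569408_at), and for AGO3 from -0.30 to 0.22. For TNRC6A they ran from -0.13 to 0.011 (234734_s_at) and -0.089 to 0.29 (224705_s_at), and for TNRC6B 1558142_at from -0.091 to 0.18. A fit without 1 array assumes that the lone array of its group varies like the others. TARDBP and TSN passed with a trend and robust eBayes, at 0.43 and 0.39. Without detection calls, level alone does not show that a probe set detects its gene. This limits what can be said of AGO4 1569408_at and TNRC6B 230779_at, but not only of such low probe sets. Blood markers lay between level percentiles 37.7 (CD14) and 76.4 (HBB), and endothelial ones between 11.9 (CDH5) and 82.0 (PECAM1). AGO4 222842_at lay at 43.9, and the DICER1 probe set with the highest mean at 52.1.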
